A study of Homo sapiens with 12 samples.

Results

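The genes of the cyclin-dependent kinase (CDK) inhibitors were followed by RNA-seq in QGP-1 and BON-1, 2 established lines of human pancreatic neuroendocrine tumor (pNET) cells. The 8 genes, CDKN1A, CDKN1B, CDKN1C, CDKN2A, CDKN2B, CDKN2C, CDKN2D and CDKN3, were chosen by symbol, and all 8 had a row among the 28008 genes of each line's count table. Both lines carried tet-MUC1shRNA, a hairpin RNA that doxycycline (DOX) switches on to silence MUC1, and had been selected in puromycin after transduction. Each line was treated for 7 days with 0.1% DMSO as the vehicle or with 500 ng/mL DOX, which gave 4 groups of 3 libraries, or 12 libraries. The lines grew in different media, so line and medium cannot be told apart. The libraries compared here hold no control hairpin, so DOX itself and MUC1 silencing cannot be told apart either.

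CDK inhibitors restrain the kinases that drive cells through the cell cycle. The INK4 proteins, p16 (CDKN2A), p15 (CDKN2B), p18 (CDKN2C) and p19 (CDKN2D), bind CDK4 and CDK6 and keep them from the D-type cyclins. The CIP/KIP proteins, p21 (CDKN1A), p27 (CDKN1B) and p57 (CDKN1C), bind cyclin-CDK complexes more broadly, those of CDK2 included. CDKN3 encodes a phosphatase that acts on CDK2 and CDK1, and its transcript is known to rise in dividing cells. In neuroendocrine tumors the family is known through menin, the MEN1 product, which promotes CDKN1B and CDKN2C transcription, and through germline loss of CDKN1B. CDKN2A also encodes the p53 activator p14ARF from another first exon, and a row per gene cannot separate these transcripts.

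Of these genes, CDKN2B rose and CDKN1C fell with DOX in QGP-1 cells, and CDKN1A and CDKN1B rose in BON-1 cells. The rise of CDKN1A was near the threshold (edgeR adjusted p = 0.0410) and passed in 1 of 6 fits that left out 1 library. The 250 bases before a RefSeq transcript start of each of the 3 genes that rose are shown because they are promoter-proximal sequences of the transcripts in question. They are from GRCh38.p14, 5′ to 3′ on the strand of the gene. The windows of CDKN1A and CDKN2B lie wholly and in a few bases inside the span annotated for the gene, and that of CDKN1B lies just before it. CDKN2B is at chr9:22009306-22009555 on the minus strand, CDKN1A at chr6:36678464-36678713 on the plus strand and CDKN1B at chr12:12717118-12717367 on the plus strand. Capitals mark GC boxes (GGGCGG) and CCAAT boxes (CCAAT), searched on both strands.
CDKN2B: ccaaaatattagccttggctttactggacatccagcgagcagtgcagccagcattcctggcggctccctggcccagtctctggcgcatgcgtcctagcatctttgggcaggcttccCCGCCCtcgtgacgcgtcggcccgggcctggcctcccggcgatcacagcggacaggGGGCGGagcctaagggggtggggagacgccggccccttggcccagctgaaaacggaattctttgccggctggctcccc
CDKN1A: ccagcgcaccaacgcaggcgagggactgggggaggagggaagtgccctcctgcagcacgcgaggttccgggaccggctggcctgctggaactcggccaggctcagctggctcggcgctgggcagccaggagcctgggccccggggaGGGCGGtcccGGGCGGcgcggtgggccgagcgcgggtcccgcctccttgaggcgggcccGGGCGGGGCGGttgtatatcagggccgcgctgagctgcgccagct
CDKN1B: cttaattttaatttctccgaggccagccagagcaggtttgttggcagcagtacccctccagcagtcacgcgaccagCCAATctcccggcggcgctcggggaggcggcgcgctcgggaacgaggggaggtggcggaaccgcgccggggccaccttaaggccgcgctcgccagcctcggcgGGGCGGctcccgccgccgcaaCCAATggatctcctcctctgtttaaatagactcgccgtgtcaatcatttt
A GC box was found in each of these windows, 2 in CDKN2B, 4 in CDKN1A and 1 in CDKN1B, against 42.6% of the 35116 RefSeq windows of that length. The CCAAT box, present in 32.0% of all windows, was found in CDKN1B, which held 2, and not in the windows of CDKN2B and CDKN1A. The E box CACGTG (6.34% of all windows), the element TTTGAA (13.3%) and 4 E2F-like octamers, TTTCCCGC, TTTCGCGC, TTTGCCGC and TTTGGCGC (2.79%), had no match in these 3 windows. Among the other members, the CDKN3 window held 2 CCAAT boxes and the only TTTGAA match of the family, and the CDKN2D window 2 GC boxes and 1 CCAAT box. RefSeq gives CDKN2A 2 windows and CDKN2C 3, for their separate starts. The CDKN2A windows held 1 and 0 GC boxes and the CDKN2C windows 0, 5 and 1. GC boxes were thus not particular to the genes that rose. CDKN1C was not among the sequences used here.

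Depth ranged from 38224144 to 50525926 counts per QGP-1 library and from 15981954 to 28484324 counts per BON-1 library. MUC1, the target of the hairpin, had 274, 251 and 281 counts with vehicle and 34, 41 and 32 with DOX in QGP-1 cells. In BON-1 cells it had 580, 467 and 281 counts with vehicle and 23, 51 and 78 with DOX, so every DOX library lay below every vehicle library in both lines. Neuroendocrine markers were detected in both lines, with 11 of the 12 above 0 in QGP-1 cells, where NEUROD1 had no counts, and with NCAM1 at 0 to 2 counts per library in BON-1 cells. The summed level of the 12 was 6387 to 7258 CPM (depth-scaled counts) with vehicle and 7451 to 8073 with DOX in QGP-1 cells. In BON-1 cells it was 12104 to 15687 with vehicle and 9954 to 10321 with DOX, so the groups did not overlap in either line. In BON-1 cells CHGA, of the secretory granule, fell by 1.46 on the log2 scale (adjusted p = 2.45e-11) and SYP, of synaptic vesicles, by 0.34 (adjusted p = 0.0192), a call lost without vehicle replicate 1, vehicle replicate 3 or DOX replicate 3 (−0.43 to −0.26 over the 6 fits). Of the 11 markers tested there, 3 fell and 2 rose, against 18.3% and 17.0% of all genes, with a median log2 fold change of −0.05. Those that rose were SCG2 at 0.45 (edgeR adjusted p = 0.000126) and SCG3 at 0.27 (edgeR adjusted p = 0.0131). Markers of other cell types were lower in level. The 5 leukocyte markers summed to 10.8 to 13.2 CPM with vehicle and 17.3 to 21.6 with DOX in QGP-1 cells and to 24.98 to 27.5 and 51.2 to 55.4 in BON-1 cells. The lysosomal gene CD68 rose by 1.00 in BON-1 cells (log2, adjusted p = 4.33e-09) and the lysozyme gene LYZ by 0.64 in QGP-1 cells (adjusted p = 0.000806), while PTPRC, which defines leukocytes, had 0 to 9 counts per library. The 6 fibroblast markers summed to 1.86 to 3.75 CPM with vehicle and 1.17 to 1.35 with DOX in QGP-1 cells and to 5.02 to 6.47 and 10.4 to 11.1 in BON-1 cells. The 4 endothelial markers overlapped between vehicle and DOX in both lines. The part of these shifts in the values of the CDK inhibitor genes was not tested. The abundant noncoding RNAs RN7SK, RN7SL1 and RN7SL2 took 5.37%, 5.94% and 6.38% of the counts with vehicle and 4.53%, 3.36% and 3.30% with DOX in QGP-1 cells. Their share in BON-1 cells was 1.35% to 3.77%. They took 50.9% to 80.3% of the deposited TPM values, which divide counts by gene length and set every library to the same total, so treatment effects were tested on counts.

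The members differed widely in level. Levels were compared between genes only per length, as TPM, over the 6 libraries of a line. In QGP-1 cells CDKN3 (median 20.4 TPM, range 15.3 to 30.3) and CDKN2A (18.8, 15.1 to 29.2) led, and their ranges overlapped. CDKN1B followed at a median of 8.88 TPM (5.76 to 12.5), then CDKN2B at 6.71 (2.89 to 10.4), CDKN1A at 3.99 (2.98 to 5.23) and CDKN2C at 3.62 (2.76 to 5.06), each overlapping its neighbor. CDKN2D at 1.52 TPM (0.816 to 2.40) and CDKN1C at 0.387 TPM (0.295 to 0.530) lay below these, without overlap between neighbors. Compared within each of the 6 libraries, CDKN3 was above CDKN2A in 5 and CDKN1B above CDKN2B in all 6. CDKN2B was above CDKN1A in 4, and CDKN1A above CDKN2C in 4. The place of CDKN2B above CDKN1A came from the DOX libraries. With vehicle CDKN2B was at 4.29, 3.20 and 2.89 TPM and CDKN1A at 3.72, 3.23 and 2.98, so CDKN2B was the higher in 1 of 3 libraries.

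In BON-1 cells the order was another one. CDKN3 stood first at a median of 167 TPM (110 to 245) and CDKN1B second at 36.9 TPM (27.9 to 63.6). CDKN2C at 20.5 TPM (14.2 to 29.7) and CDKN1A at 15.2 TPM (11 to 22.8) came next, and CDKN2D was at 3.93 TPM (3.47 to 6.56). CDKN1C was at 0.132 TPM (0.0440 to 0.244). The TPM ranges of CDKN1B, CDKN2C and CDKN1A overlapped between neighbors, but within each of the 6 libraries CDKN1B was above CDKN2C and CDKN2C above CDKN1A. CDKN2A and CDKN2B had 0 counts in all 6 BON-1 libraries.

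The balance of the families followed from this. Of the summed TPM of the 4 INK4 and 3 CIP/KIP genes, a share that library scaling cannot alter, INK4 genes took 67.4%, 69.9% and 70.2% in QGP-1 vehicle libraries and 31.6%, 34.6% and 32.1% in BON-1 vehicle libraries. CDKN2A and CDKN2B together made up 56.7% ± 1.69 (SD, n = 3) of the sum with vehicle in QGP-1 cells. They made up 0% in BON-1 cells, where the INK4 share consisted of CDKN2C and CDKN2D.

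**Figure D1:**
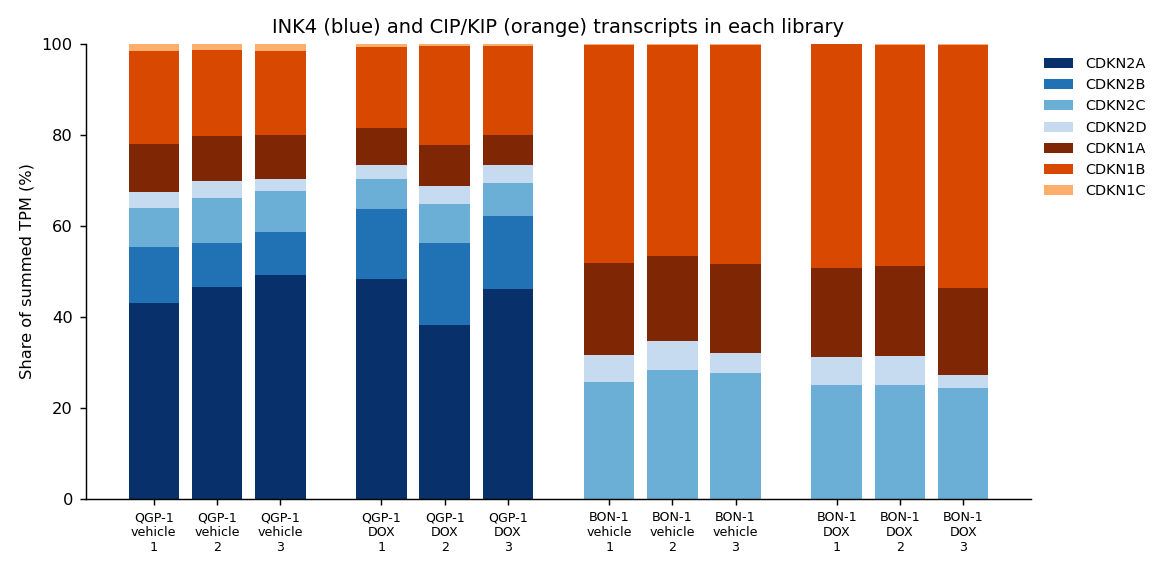
Share of the summed TPM of INK4 genes (blue) and CIP/KIP genes (orange) taken by each gene, in percent, with 1 bar per library. CDKN2A and CDKN2B (the darkest blues) fill 55.3% to 63.7% of the QGP-1 bars and none of the BON-1 bars, and the CDKN2B part is larger in the 3 QGP-1 DOX libraries than in the 3 vehicle libraries.

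The vehicle libraries of both lines were normalized together to compare each gene between the lines, as CPM, which are counts scaled for depth with TMM factors. Calls were made by edgeR's quasi-likelihood test where the adjusted p was under 0.05. All 8 members were called, against 77.5% of the 15835 genes tested, so a call was the rule for any gene in this contrast. Of the members 5 were higher and 3 lower in BON-1 cells, against 39.4% and 38.0% of all genes. CDKN3 was higher in BON-1 cells, at 154, 180 and 175 CPM against 32.0, 47.3 and 47.1 in QGP-1 cells (log2 fold change 2.01, standard error 0.11, adjusted p = 1.73e-12). CDKN2C, the gene for p18, was at 57.4, 61.3 and 56.0 CPM against 17.5, 21.1 and 19.1 (log2 fold change 1.60, standard error 0.09, adjusted p = 3.44e-12). CDKN1B was at 109, 102 and 100.02 CPM against 42.9, 41.4 and 40.5 (log2 fold change 1.32, standard error 0.08, adjusted p = 2.32e-12).

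CDKN1A, the p53-responsive gene for p21, was at 48.4, 43.8 and 42.3 CPM in BON-1 cells against 23.4, 22.2 and 22.1 in QGP-1 cells (log2 fold change 0.99, standard error 0.09, adjusted p = 4.80e-09). CDKN2D, the gene for p19, was at 6.72, 7.0 and 4.70 CPM against 3.71, 4.26 and 2.92 (log2 fold change 0.77, standard error 0.21, adjusted p = 0.00263). CDKN1C, an imprinted gene, went the other way, at 0.731, 0.443 and 0.442 CPM in BON-1 cells against 5.07, 4.47 and 5.01 in QGP-1 cells (log2 fold change −3.12, standard error 0.29, adjusted p = 5.68e-09). None of the 8 genes overlapped between the lines, a pattern shared by 79.3% of all genes tested. These p-values cover the spread between cultures of 1 line each and not the spread between pNET lines.

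CDKN2A had 2722, 3447 and 4137 counts in the QGP-1 vehicle libraries and CDKN2B had 1600, 1472 and 1628. With 3 counts over the BON-1 vehicle libraries taken as the limit that a count of 0 allows (0.0432 CPM), CDKN2A was at least 1842-fold and CDKN2B at least 854-fold higher in QGP-1 cells. CDKN2A lies on chromosome 9 of GRCh38.p14 from 21967752 to 21995324 and CDKN2B from 22002903 to 22009313, both on the minus strand. Their neighbors were examined after these values had been seen. MTAP, the gene of a methionine salvage enzyme, was at least 1302-fold higher in QGP-1 cells by the same limit, KLHL9 at least 4121-fold, CDKN2B-AS1 at least 185-fold and DMRTA1 at least 72.6-fold.

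The zeros were contiguous. The 28 rows in a run from HACD4 to LINC01239, at 20999509 to 22824213 or 1824.7 kb, all had 0 counts in all 6 BON-1 libraries. Most of these rows, interferon genes among them, were at or near 0 in QGP-1 cells as well. HACD4 was at 0 there too, so the start of the run is not set by a difference between the lines. The 7 with at least 100 counts in every QGP-1 library were KLHL9, MTAP, CDKN2A, CDKN2B-AS1, CDKN2B, DMRTA1 and LINC01239. KLHL9, the first of these along the chromosome, starts at 21329665. Of all 11483 genes at that minimum in QGP-1 cells, 94 (0.819%) had 0 counts in every BON-1 library. On the one side FOCAD, which ends at 20995950, had 919 to 1552 counts per BON-1 library. On the other side the next row, LOC101929563, starts at 23500691 and had 12 to 28. ELAVL2, a neuronal RNA-binding protein gene that starts at 23690104, had 311 to 591. Farther on, TUSC1, which starts at 25676969, had 1 to 12 counts per BON-1 library and at least 379 per QGP-1 library. ELAVL2 did not pass the test between the lines (log2 fold change 0.06, standard error 0.10, adjusted p = 0.633). Counts of RNA do not tell why these rows are at 0, and the cause was not tested.

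**Figure D2:**
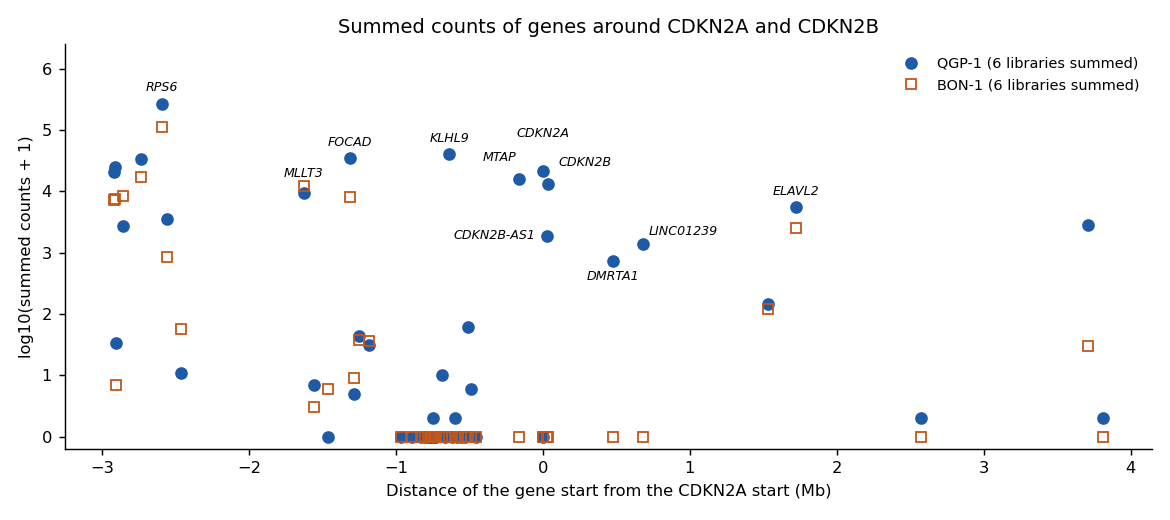
Counts of each gene around CDKN2A and CDKN2B, summed over the 6 libraries of a line and shown as log10(counts + 1), against the distance of the gene start from that of CDKN2A in Mb. From HACD4 to LINC01239 the BON-1 squares lie at 0, while FOCAD and ELAVL2 on either side are above 0 in both lines.

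DOX was then compared with vehicle in QGP-1 cells. CDKN2B rose and CDKN1C fell, which is 2 of the 8 members tested, against a background of 35.0% of 15089 genes called. The median log2 fold change of the 8 genes was −0.04, beside −0.01 for all genes tested. CDKN2B had 42.0, 34.1 and 32.7 CPM with vehicle and 65.7, 60.2 and 62.6 CPM with DOX. Every DOX library was above every vehicle library, and the spread within each group was small beside the gap. Its mean rose from 36.2 ± 5.0 (SD, n = 3) to 62.9 ± 2.75 CPM (SD, n = 3), a 1.74-fold rise (log2 fold change 0.80, standard error 0.10, adjusted p = 3.68e-05). The call held in all 6 fits that left out 1 library (log2 fold change 0.73 to 0.91) and in all 9 other settings without a minimum fold change.

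As a share, which is free of library scaling, CDKN2B took 18.2%, 13.8% and 13.4% of INK4 TPM with vehicle and 20.99%, 26.1% and 22.1% with DOX, again without overlap. An exact two-sided permutation test of 3 against 3 libraries cannot give a p below 0.1, so these shares are given as a description. CDKN2B-AS1, a noncoding RNA also known as ANRIL, is transcribed from the opposite strand across CDKN2B. It had 6.95, 6.89 and 9.67 CPM with vehicle and 6.26, 5.70 and 6.13 with DOX (log2 fold change −0.38, standard error 0.16, adjusted p = 0.0776). The libraries were stranded, but whether the strand was used in counting is not given in the sources used here, so reads over the overlap of these genes may be shared between them. Of the other neighbors, KLHL9, which encodes a cullin adaptor, fell by 0.38 on the log2 scale (standard error 0.07, adjusted p = 0.000811), and MTAP rose by 0.24 (standard error 0.08, adjusted p = 0.0227). The call of MTAP was lost without vehicle replicate 1, vehicle replicate 2 or DOX replicate 2 (0.19 to 0.29 over the 6 fits).

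CDKN2A, the other gene of the locus, did not pass the test. It had 71.4, 79.8 and 83.1 CPM with vehicle and 99.9, 61.8 and 86.3 with DOX (log2 fold change 0.08, standard error 0.13, adjusted p = 0.666). The DOX libraries spanned the vehicle libraries, and without DOX replicate 1 the sign turned (−0.07, adjusted p = 0.69). The other INK4 genes did not pass either. CDKN2C had 17.3, 20.8 and 18.5 CPM with vehicle and 16.8, 17.3 and 16.7 with DOX (log2 fold change −0.15, standard error 0.10, adjusted p = 0.265). CDKN2D had 3.67, 4.19 and 2.83 CPM with vehicle and 3.88, 4.06 and 4.48 with DOX (log2 fold change 0.22, standard error 0.19, adjusted p = 0.413). Whether CDKN2B moved more than CDKN2A was not tested.

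CDKN1C had 191, 190 and 242 counts with vehicle and 116, 65 and 81 with DOX in QGP-1 cells. In CPM these were 5.01, 4.4 and 4.86 against 2.40, 1.65 and 1.88, so the least of the vehicle libraries was above the highest of the DOX libraries. Its mean fell from 4.76 ± 0.320 (SD, n = 3) to 1.98 ± 0.388 CPM (SD, n = 3), a 2.39-fold difference (log2 fold change −1.26, standard error 0.20, adjusted p = 0.000336). The call held in all 6 fits without 1 library (−1.42 to −1.14) and in each of the 8 other settings that tested the gene. CDKN1C took 4.64%, 4.28% and 4.84% of CIP/KIP TPM with vehicle and 2.18%, 1.64% and 1.89% with DOX. CDKN1B, the largest part of that sum, took 62.8%, 63.4% and 62.7% with vehicle and 66.6%, 69.4% and 72.9% with DOX.

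CDKN1C lies on chromosome 11 of GRCh38.p14 from 2883218 to 2885775, in an imprinted region. Of 8 neighbors tested in QGP-1 cells, 3 fell and none rose, against 17.7% and 17.3% of all genes tested, and their median log2 fold change was −0.01, beside −0.01 for all genes. SLC22A18, which encodes a transporter, fell by 0.81 on the log2 scale (standard error 0.15, adjusted p = 0.000854), and the tetraspanin gene CD81 fell by 0.22 (standard error 0.07, adjusted p = 0.0216). KCNQ1, a potassium channel gene, fell from 64, 46 and 43 counts to 3, 11 and 13 (log2 fold change −2.49, standard error 0.55, adjusted p = 0.00303). PHLDA2, an imprinted growth regulator, did not pass the test, at 0.13 (standard error 0.11, adjusted p = 0.410). The call of CD81 in QGP-1 cells was lost without vehicle replicate 1, vehicle replicate 2 or DOX replicate 1 (fold changes of −0.27 to −0.18 over the 6 fits). In BON-1 cells, where CDKN1C did not pass the test, CD81 fell by 0.64 (standard error 0.09, adjusted p = 1.12e-06). Of 7 neighbors tested there it was the 1 called, against 18.3% of all genes lower and 17.0% higher. Its interaction was −0.41 (edgeR adjusted p = 0.0133).

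The remaining CIP/KIP genes and CDKN3 did not pass the test in QGP-1 cells. CDKN1A had 23.1, 21.8 and 21.4 CPM with vehicle and 22.6, 19.2 and 16.5 with DOX (log2 fold change −0.19, standard error 0.11, adjusted p = 0.233). Without DOX replicate 1, which overlapped the vehicle libraries, the value was −0.30 with an adjusted p of 0.0428. CDKN1B had 42.4, 40.7 and 39.4 CPM with vehicle and 45.9, 43.7 and 45.5 with DOX. These groups did not overlap, as for 46.7% of all genes, but the difference was small (log2 fold change 0.14, standard error 0.08, adjusted p = 0.177).

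CDKN3 varied between replicates in QGP-1 cells. It had 31.6, 46.5 and 45.8 CPM with vehicle and 46.0, 27.1 and 25.9 with DOX, so 1 library of each group sat among those of the other (log2 fold change −0.32, standard error 0.19, adjusted p = 0.209). Without DOX replicate 1 the value was −0.63 with an adjusted p of 0.00350, and with no filter on low counts it was −0.32 with an adjusted p of 0.00642.

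**Figure D3:**
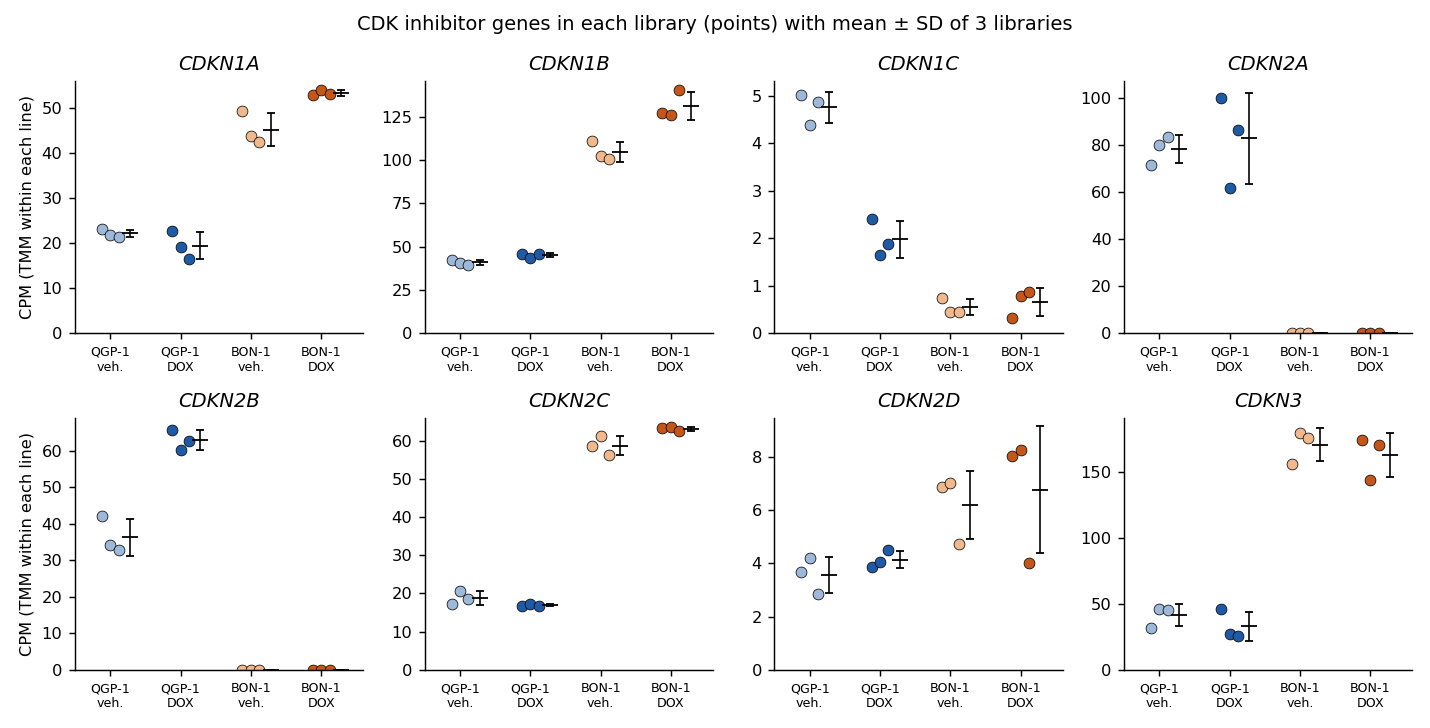
CPM of each member in the 12 libraries (points) with the mean ± SD of 3 libraries, on axes that start at 0, normalized within each line. In QGP-1 cells the CDKN2B points rise from between 32.7 and 42.0 to between 60.2 and 65.7 with DOX and the CDKN1C points lie at 1.65 to 2.40 with DOX. In BON-1 cells CDKN2A and CDKN2B lie at 0.

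In BON-1 cells the CIP/KIP genes CDKN1B and CDKN1A rose with DOX, 2 of the 6 members tested, against a background of 35.3% of 14625 genes called. The median log2 fold change of the 6 genes was 0.18, beside −0.01 for all genes. CDKN1B had 111, 102 and 101 CPM with vehicle and 127, 126 and 141 with DOX, without overlap. Its mean rose from 105 ± 5.79 (SD, n = 3) to 131 ± 8.18 CPM (SD, n = 3), a 1.25-fold rise (log2 fold change 0.32, standard error 0.08, adjusted p = 0.00179). The call held in all 6 fits that left out 1 library (0.25 to 0.37) and in 7 of 9 other settings, the exceptions being the TPM values as deposited (−0.04, adjusted p = 0.962) and after leaving out the 3 noncoding RNAs (0.28, adjusted p = 0.0528).

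CDKN1A had 49.4, 43.8 and 42.5 CPM with vehicle and 52.9, 54.1 and 53.1 with DOX in BON-1 cells, without overlap. Its mean went from 45.2 ± 3.65 (SD, n = 3) to 53.4 ± 0.639 CPM (SD, n = 3), a 1.18-fold rise (log2 fold change 0.24, standard error 0.09, adjusted p = 0.0410). This call was close to the threshold. It was lost without vehicle replicate 2 or 3 or any 1 of the 3 DOX libraries (0.19 to 0.24, adjusted p = 0.0710 to 0.187), and was kept without vehicle replicate 1 (0.31, adjusted p = 0.0182). Of 9 other settings 4 kept it, and on the deposited TPM the value was −0.11.

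The other members did not pass the test in BON-1 cells. CDKN2C had 58.5, 61.4 and 56.3 CPM with vehicle and 63.3, 63.7 and 62.7 with DOX, groups that did not overlap, as for 46.3% of all genes (log2 fold change 0.11, standard error 0.08, adjusted p = 0.348). CDKN3 had 157, 180 and 176 CPM with vehicle and 175, 144 and 171 with DOX (log2 fold change −0.07, standard error 0.08, adjusted p = 0.567). CDKN2D had 6.85, 7.01 and 4.72 CPM with vehicle and 8.02, 8.27 and 4.02 with DOX (log2 fold change 0.11, standard error 0.23, adjusted p = 0.744), with replicate 3 low in both groups. CDKN1C had only 21, 10 and 8 counts with vehicle and 5, 15 and 17 with DOX, and did not pass the test (log2 fold change 0.26, standard error 0.55, adjusted p = 0.750). CDKN2A and CDKN2B, at 0 counts throughout, gave no value.

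The responses of the lines were compared by an interaction term in a joint fit of the 12 libraries, which called 17.2% of the 16160 genes tested that had counts in both lines, 8.14% with a lower and 9.04% with a higher response in BON-1 cells. Of the 6 members with counts in both lines, CDKN1A and CDKN1C differed in response, both with the higher value in BON-1 cells. For CDKN1A the BON-1 response exceeded the QGP-1 response by 0.43 (log2, standard error 0.15, adjusted p = 0.0480), from −0.19 in QGP-1 and 0.24 in BON-1 cells. For CDKN1C the difference was 1.53 (standard error 0.50, adjusted p = 0.0378), from −1.26 and 0.26, where the BON-1 side rests on 5 to 21 counts per library. Both calls were near the threshold. That of CDKN1A was kept in 2 of 12 fits without 1 library, those without BON-1 vehicle replicate 1 or QGP-1 DOX replicate 1 (0.49 and 0.50), and lost in the other 10 (0.33 to 0.45, adjusted p = 0.0579 to 0.142). That of CDKN1C was kept in 3 of 12, those without BON-1 vehicle replicate 1, BON-1 DOX replicate 1 or QGP-1 DOX replicate 1 (1.85, 1.81 and 1.65), and lost in the other 9 (1.27 to 1.59, adjusted p = 0.0544 to 0.132).

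CDKN1B, called in BON-1 and not in QGP-1 cells, did not differ in response past the threshold (difference 0.19, standard error 0.11, adjusted p = 0.259). The difference was 0.27 for CDKN2C (standard error 0.13, adjusted p = 0.156) and 0.27 for CDKN3 (standard error 0.22, adjusted p = 0.444). It was −0.10 for CDKN2D (standard error 0.33, adjusted p = 0.899). The difference of CDKN3 passed without QGP-1 DOX replicate 1 (0.53, adjusted p = 0.0289).

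**Figure D4:**
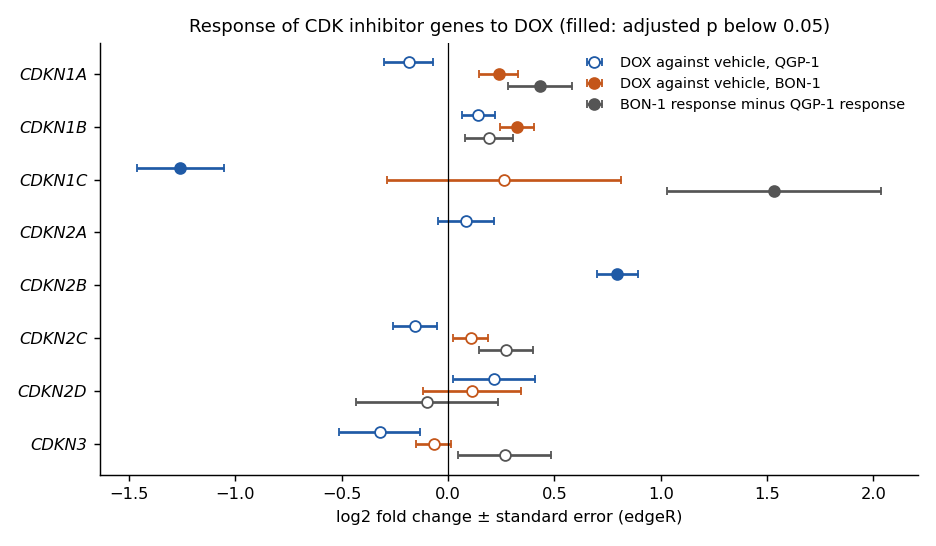
Log2 fold change with its standard error for DOX against vehicle in QGP-1 cells (blue) and BON-1 cells (orange) and for the BON-1 response minus the QGP-1 response (grey), with filled points at an adjusted p below 0.05. CDKN2B and CDKN1C stand away from 0 in QGP-1 cells at 0.80 and −1.26, and CDKN2A and CDKN2B have no BON-1 value.

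The kinases and cyclins that these inhibitors act on moved in both directions. The counts of this and the following lists are to be read against all genes tested, of which 17.7% were called lower and 17.3% higher in QGP-1 cells, and 18.3% and 17.0% in BON-1 cells, with a median of −0.01 in each line. In QGP-1 cells 3 of 12 tested cyclin and CDK genes fell and 2 rose, with a median log2 fold change of −0.09. CCNE2, the gene of an E-type cyclin, fell by 0.73 on the log2 scale (standard error 0.11, adjusted p = 0.000163), and its partner CDK2 fell by 0.47 (standard error 0.07, adjusted p = 0.000256). CDK1, the mitotic kinase, fell by 0.38 (standard error 0.09, adjusted p = 0.00645), while CDK6, a target of INK4 proteins, rose by 0.42 (standard error 0.07, adjusted p = 0.000676). In BON-1 cells 4 of 11 fell and 1 rose, with a median of −0.09. There the mitotic cyclin genes CCNB2 and CCNB1 fell by 0.57 and 0.42 (adjusted p = 1.95e-06 and 0.000124), CDK4, the other INK4 target, by 0.39 (adjusted p = 0.000704) and CCNA2, of S and G2 phase, by 0.32 (adjusted p = 0.00149).

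Downstream of the kinases lie RB1, its relatives and the E2F factors. Of these 11 genes, 4 fell and 3 rose in QGP-1 cells, and 2 fell and 2 rose in BON-1 cells, with medians of −0.18 and −0.01. RBL1, which encodes the RB relative p107, fell in both, by 0.46 in QGP-1 cells (adjusted p = 0.00198) and by 0.62 in BON-1 cells (adjusted p = 1.09e-06). Of the activating factors, E2F1 and E2F2 fell in QGP-1 cells by 0.52 and 0.38 (adjusted p = 0.000573 and 0.0137), and E2F3 rose by 0.23 (adjusted p = 0.0188), a call kept without vehicle replicate 3 or DOX replicate 1 and lost in the other 4 fits (0.21 to 0.25). The repressive E2F4 fell in BON-1 cells by 0.52 (adjusted p = 3.72e-05). E2F7, another repressor, rose in both lines, by 0.39 (adjusted p = 0.0113) and by 0.30 (adjusted p = 0.00369), and the repressor E2F6 rose in BON-1 cells by 0.31 (adjusted p = 0.0213). The call of E2F6 was lost without vehicle replicate 1, vehicle replicate 2 or DOX replicate 2 (0.23 to 0.36). The call of E2F2 was lost without vehicle replicate 2 or DOX replicate 3 (−0.47 to −0.30 over the 6 fits) and that of E2F7 in QGP-1 cells without vehicle replicate 1 (0.30 to 0.48).

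Of the regulators of transcription known to act on members of the family, 2 of 27 tested fell and 10 rose in QGP-1 cells (median 0.11), and 6 of 26 fell and 9 rose in BON-1 cells (median −0.04). ID1 and ID3, inhibitors of basic helix-loop-helix factors, changed in opposite directions. ID1 had 22.6, 19.6 and 22.7 CPM with vehicle and 39.7, 54.9 and 53.1 with DOX in QGP-1 cells (log2 fold change 1.19, standard error 0.12, adjusted p = 7.38e-06). In BON-1 cells it went from 197, 167 and 178 CPM to 128, 130 and 99.3 (log2 fold change −0.60, standard error 0.09, adjusted p = 6.78e-06). The interaction was −1.78 for ID1 (standard error 0.16, adjusted p = 2.73e-08) and −1.68 for ID3 (standard error 0.14, adjusted p = 1.03e-08), from 1.06 in QGP-1 and −0.63 in BON-1 cells. ID2 rose in both lines, by 0.64 in QGP-1 cells (adjusted p = 1.21e-05) and by 0.31 in BON-1 cells (adjusted p = 0.00228). KMT2A, the menin partner, likewise rose by 0.52 and 0.31 (adjusted p = 0.000318 and 0.00242), and FOXO1, an activator of CDKN1B, by 0.32 and 0.61 (adjusted p = 0.00969 and 3.45e-07). MEN1, the menin gene itself, fell in BON-1 cells by 0.34 (edgeR adjusted p = 0.0438), with groups that overlapped. It did not pass the test in QGP-1 cells, at −0.12 (edgeR adjusted p = 0.499). In BON-1 cells SMAD3, of the TGF-beta pathway, rose by 0.58 (adjusted p = 3.00e-06).

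Among 24 p53 target genes tested in each line besides CDKN1A, 7 fell and 4 rose in QGP-1 cells and 5 fell and 3 rose in BON-1 cells, with medians of −0.04 and −0.01. TP53INP1, a stress response gene, fell in both, by 1.25 and 0.52 (adjusted p = 2.50e-06 and 0.000477), and so did DDB2, of DNA repair, by 0.87 and 0.84 (adjusted p = 0.000364 and 0.000466). PLK3, a stress kinase gene, rose in both, by 0.54 and 0.81 (adjusted p = 0.00458 and 0.000121). TP53I3, which encodes an oxidoreductase, rose by 0.68 in QGP-1 cells (adjusted p = 0.000380). CCNG1, the gene of cyclin G1, fell in both lines, by 0.49 in QGP-1 and by 0.71 in BON-1 cells (adjusted p = 5.74e-05 and 2.57e-08).

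The genes for degradation of p27 and p21 protein included 5 that fell and 3 that rose of 14 in QGP-1 cells. Of the same 14, 2 fell and 4 rose in BON-1 cells (medians −0.08 and −0.07). RBX1, a subunit of cullin ligases, fell by 1.00 in QGP-1 cells (log2, adjusted p = 9.71e-06), and CUL4A, another subunit, rose by 0.40 (adjusted p = 0.00798). CKS1B, the cofactor by which the SKP2 ligase recognizes p27, fell by 0.74 in QGP-1 cells (adjusted p = 0.000332) and by 0.31 in BON-1 cells (adjusted p = 0.00811). SKP2 itself rose, by 0.22 in QGP-1 and 0.19 in BON-1 cells (edgeR adjusted p = 0.0406 and 0.046), close to the threshold in both. PCNA, the replication clamp, fell by 0.44 in QGP-1 cells (adjusted p = 0.000430). In BON-1 cells CDC20, the mitotic ligase activator, fell by 0.70 (adjusted p = 9.89e-07), while the ligase subunit genes SKP1 and CUL4B rose by 0.40 and 0.29 (adjusted p = 0.000221 and 0.00404). The levels of the proteins themselves were not measured in these files.

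The next list joins polycomb genes, whose products are known to repress the INK4 genes, with KDM6A and KDM6B, the genes of demethylases that oppose them. Of its 14 genes, 3 rose and none fell in QGP-1 cells (median 0.03). Among them were KDM6B at 0.49 (adjusted p = 0.000428) and CBX2 at 0.26 (adjusted p = 0.0446). The call of CBX2 was lost in 4 of the 6 fits without 1 library (0.16 to 0.32) and kept without vehicle replicate 1 or DOX replicate 3. In BON-1 cells 2 fell and 1 rose (median 0.00), with BMI1 at −0.90 (adjusted p = 0.000915), CBX2 at −0.37 (adjusted p = 0.0208) and EZH1 at 0.54 (adjusted p = 0.00361). There the call of CBX2 was lost without vehicle replicate 1, vehicle replicate 3 or DOX replicate 2 (−0.49 to −0.28).

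Of 18 markers of proliferating cells, 5 fell and 2 rose in QGP-1 cells (median −0.09), among them MCM5 and MCM6, of the replicative helicase, at −0.58 and −0.56 and CENPF and MKI67, of mitotic and cycling cells, at 0.59 and 0.43. The call of MKI67 was lost without DOX replicate 2 (0.28 to 0.53 over the 6 fits). In BON-1 cells 11 fell and none rose (median −0.26), led by PLK1 at −0.64, AURKB at −0.54, BUB1 at −0.47 and AURKA at −0.47, all regulators of mitosis. AURKB was also called in QGP-1 cells, at −0.39 (adjusted p = 0.0169), and MCM6 and CENPF in BON-1 cells, at −0.35 and −0.22 (adjusted p = 0.000988 and 0.0224). The call of AURKB in QGP-1 cells was lost without vehicle replicate 1, vehicle replicate 2 or DOX replicate 3 (−0.49 to −0.29), and that of CENPF in BON-1 cells without vehicle replicate 2, vehicle replicate 3 or DOX replicate 1 (−0.26 to −0.19). The summed level of the 18 genes was 3553 to 3915 CPM with vehicle and 3585 to 4116 with DOX in QGP-1 cells, overlapping. In BON-1 cells it was 5519 to 5845 with vehicle and 4919 to 5055 with DOX, where CDKN1A and CDKN1B were higher. The part of cell cycle distribution in the levels of the inhibitors was not tested, and fewer cells with a transcript cannot be told apart from less transcript per cell.

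The transcripts most like each member over the 12 libraries were found by Pearson's r of log2 CPM after subtracting the mean of each line, among 9014 genes expressed in both lines. For CDKN1A these were JPT2 (r = 0.94), EXOC4 (0.91) and NFYC (0.90), and for CDKN1B CLCN3 (0.98), ZBTB38 (0.97) and RAB10 (0.97). CDKN2C lay nearest TCF7L2 (0.90), HPS1 (0.89) and LINC01091 (0.86), and CDKN2D nearest MYL6B (0.93), FAM193A (0.90) and STX1A (0.89). CDKN3 lay nearest MED7 (0.91), ERH (0.90) and MRPL11 (0.90). The points share the DOX contrast and the depth of each library, and the 3 highest of so many values were picked, so these are a description.

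How far the calls of the members depended on the library or the unit is shown by the fold changes under every alternative.

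**Figure D5:**
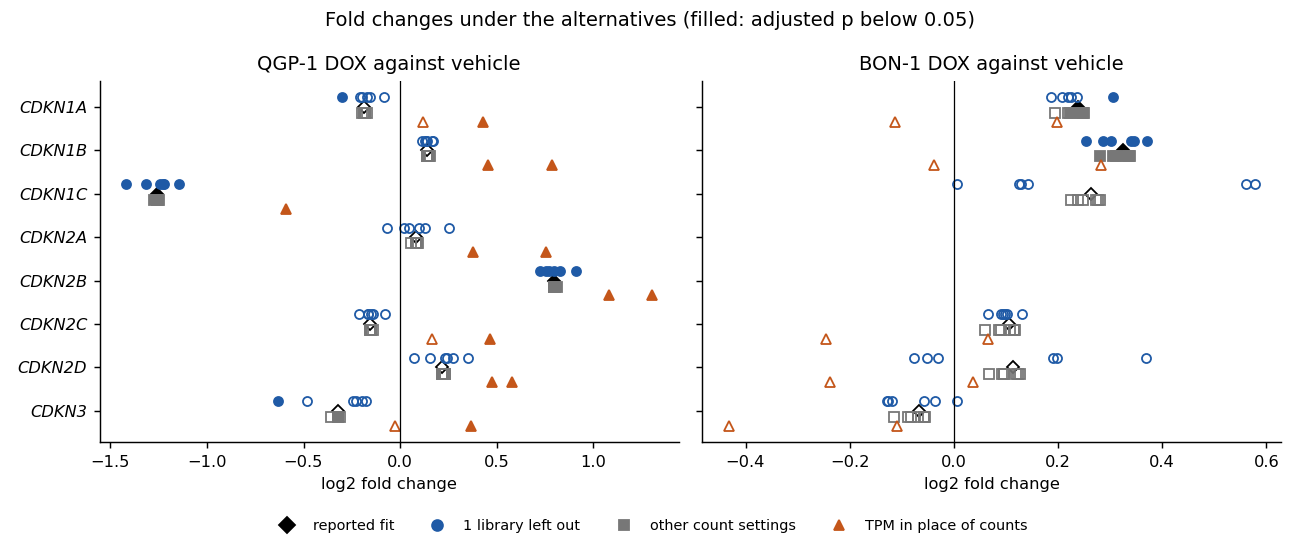
Log2 fold changes of DOX against vehicle for each member, with filled symbols at an adjusted p below 0.05, for the reported fit (diamonds), fits without 1 library (circles), other settings on counts (squares) and tests on TPM (triangles). CDKN2B and CDKN1C in QGP-1 cells stay filled wherever they were tested. CDKN1C, with a mean below 1 TPM, was not tested on the deposited TPM. The TPM triangles lie to the right of the counts in QGP-1 cells, where the deposited TPM moved the median of all genes to 0.59, and for the deposited TPM to the left in BON-1 cells, where it moved to −0.31.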

How the data were processed

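RNA-seq of 3 vehicle and 3 DOX libraries of each tet-MUC1shRNA line was analyzed. The authors made stranded mRNA libraries, used STAR for alignment against GRCh38 and deposited raw counts per gene for each line. They also deposited TPM values, made from these counts by gene length. The STAR version, the counting program and its use of the strand are not given in the sources used here. Replicates are cultures as labelled, and each column was matched to its library by the labels. The rule for members, the gene lists and the tests were chosen with earlier results of these data known.

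The tests on counts used edgeR 4.0.16 (R 4.3.3): default low-count filter, TMM, quasi-likelihood fit, Benjamini-Hochberg adjustment over all genes tested and an adjusted p threshold of 0.05 with no minimum fold change. Each line was fitted alone, the line contrast over the 6 vehicle libraries, and the interaction over all 12. The standard error is the log2 fold change divided by the square root of F. Besides all members, up to 4 genes of each list were named per line: those called with the largest change whose groups did not overlap and whose mean log2 CPM reached 3. A gene so named is also given for the other line where it was called there. E2F3, CHGA, SYP, SCG2, SCG3, CD68, LYZ, MEN1 and SKP2 were named after their values had been seen. One gene that the rule names is not reported here. Neighbors at 9p21 and 11p15 could be named by level. The 3 genes most like a member were named for members whose mean log2 CPM reached 1 in both lines, with 0.5 CPM added before the log. Alternatives were DESeq2 1.42.0, library size or DESeq2 size factors in place of TMM, no low-count filter, at least 10 counts per library, limma 3.58.1 on log2(TPM + 1) where the mean TPM reached 1, the same after leaving out RN7SK, RN7SL1 and RN7SL2 (chosen after seeing the data), the replicate block, all 12 libraries in 1 fit, a minimum absolute log2 fold change of 1, and each library left out. The code was checked on simulated data, with 200 genes changed 2-fold for each contrast. False calls were 16 of 176 calls for QGP-1 cells, 15 of 171 for BON-1 cells, 8 of 147 for the interaction and 14 of 176 between the lines. In the same order, 160 of 197, 156 of 196, 139 of 197 and 162 of 192 changed genes that were tested were called. Replicates differed by more than sampling noise (chi-square per gene 5.92 to 29.7), so each was counted as its own sample. Depth makes counting error small except for CDKN1C and CDKN2D, and intervals or limits from counts cover counting error only. Positions and promoter windows are from RefSeq on GRCh38.p14, whereas the deposited counts were made on GRCh38, which the methods of the study name with a release suffix whose relation to that patch was not established here. The overlaps of CDKN1A with DINOL, and of CDKN2A and CDKN2B with CDKN2B-AS1, leave those counts uncertain without strand. No column was left unused.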

Additional observations from a re-analysis of the deposited data

Results flagged for a closer look

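The response of CDKN1A differed between the lines by the interaction test, with a difference of 0.43 on the log2 scale (BON-1 minus QGP-1, edgeR adjusted p = 0.0480). All 3 BON-1 DOX libraries were above the 3 vehicle libraries, while in QGP-1 cells the DOX libraries were at 16.5 to 22.6 CPM against 21.4 to 23.1 with vehicle. This call was kept in 2 of 12 fits without 1 library (those without BON-1 vehicle replicate 1 or QGP-1 DOX replicate 1) and in 3 of 8 other settings without a minimum fold change, and the deposited TPM turned the sign (−0.54). The response of CDKN1C differed by 1.53 (edgeR adjusted p = 0.0378), with all 3 QGP-1 DOX libraries below the vehicle libraries and overlapping groups of 5 to 21 counts in BON-1 cells. It was kept in 3 of 12 fits without 1 library, those without BON-1 vehicle replicate 1, BON-1 DOX replicate 1 or QGP-1 DOX replicate 1, and lost with the replicate block (adjusted p = 0.0598).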

How the results depend on the processing

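With 1 library left out, the number of members called ranged from 2 to 4 in QGP-1 cells, 1 to 2 in BON-1 cells, 0 to 3 for the interaction and 8 to 8 between the lines. Over all genes the numbers ranged from 3971 to 5258, 4134 to 4773, 2114 to 2930 and 11901 to 12258. A sign turned for CDKN2A in QGP-1 cells without DOX replicate 1 (−0.069, range −0.069 to 0.26), and in BON-1 cells for CDKN3 without DOX replicate 2 (0.0052, range −0.13 to 0.0052) and for CDKN2D without vehicle replicate 3 (−0.05), DOX replicate 1 (−0.03) or DOX replicate 2 (−0.076, range −0.076 to 0.37). For the interaction of CDKN2D it turned without BON-1 DOX replicate 3 (0.16) or QGP-1 vehicle replicate 3 (0.05), with a range of −0.32 to 0.16. None of these values was called, and the cause was not tested.

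Library size in place of TMM and no low-count filter each left 1 member called in BON-1 cells and 1 for the interaction. The fit of all 12 libraries left 1 in BON-1 cells, and DESeq2 size factors and a minimum of 10 counts each left 1 for the interaction. That minimum left 5 members called between the lines, since CDKN1C, CDKN2A and CDKN2B were then not tested. A minimum absolute log2 fold change of 1 left 1 member in QGP-1 cells, 0 in BON-1 cells (where 2 had an adjusted p below 0.05) and 1 for the interaction, and 543, 719 and 679 genes in all, with 6428 between the lines. Among all genes called, 49.4% were higher in QGP-1 cells, 48.2% in BON-1 cells, 52.6% for the interaction and 50.9% between the lines. With library size the share was 38.1% for the interaction, where the median of all genes moved to −0.073.

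With the deposited TPM, the median over all genes moved to 0.59 (log2) in QGP-1 cells, −0.31 in BON-1 cells, −0.89 for the interaction and 1.11 between the lines. By limma it called 7 members in QGP-1 cells, 0 in BON-1 cells and 2 for the interaction, and 9257, 257 and 8063 genes in all, of which 99.0%, 10.9% and 0.63% were higher (93.8% between the lines). After leaving out RN7SK, RN7SL1 and RN7SL2, the medians were 0.29, −0.05, −0.33 and 0.31, 5 members were called in QGP-1 cells, 0 in BON-1 cells and 1 for the interaction (5976 genes in all), and the higher shares were 90.7%, 37.1%, 7.86% and 65.6%. Relative to these medians CDKN2B stood at 0.71 and 0.79 in QGP-1 cells, CDKN1C at −0.88 on the rescaled values, and CDKN1B at 0.27 and 0.33 in BON-1 cells. Signs turned on the deposited TPM, in QGP-1 cells, for CDKN1A (0.43), CDKN2C (0.46), CDKN3 (0.37), AURKB (0.33), CCNE2 (0.014), CCNG1 (0.24), CD81 (0.51), CDK1 (0.32), CDK2 (0.25), E2F1 (0.20), E2F2 (0.28), KLHL9 (0.33), MCM5 (0.15), MCM6 (0.18), PCNA (0.29) and RBL1 (0.19), of which CDKN1A, CDKN2C and CD81 also turned on the rescaled values (0.12, 0.16 and 0.10). In BON-1 cells they turned for CDKN1A (−0.11), CDKN1B (−0.038), CDKN2C (−0.24), CDKN2D (−0.24), CUL4B (−0.072), E2F6 (−0.0497), E2F7 (−0.062), ID2 (−0.058) and KMT2A (−0.0435). For the interaction they turned for CDKN1A (−0.54), CDKN1B (−0.83), CDKN2C (−0.71) and CDKN3 (−0.80), and on the rescaled values for CDKN1B (−0.17), CDKN2C (−0.10) and CDKN3 (−0.081). The rescaled TPM left 1 neighboring pair with overlapping ranges in the order of BON-1 levels, in place of 3, namely CDKN2A and CDKN2B, both at 0.

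Replicate numbers are shared between groups. Deviations of same-numbered libraries correlated at −0.09, 0.16 and 0.11 in QGP-1 cells and −0.07, −0.04 and 0.10 in BON-1 cells, and not every library correlated best with its own number. Deviations from the mean of 3 libraries depend on one another, so these values cannot decide whether the cultures were paired. With the replicate block 2 members were called in each line and 1 for the interaction, where CDKN1C had an adjusted p of 0.0598, and 5487, 5064 and 2773 genes were called in all. Low counts limit CDKN1C in BON-1 cells (5 to 21 per library), where CDKN2A and CDKN2B, at 0, gave no value. No other alternative changed the number of members called by over 1.5 times.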
